A study of Homo sapiens with 11 samples.

Results

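The peroxiredoxins PRDX1 to PRDX6, thioredoxin (TXN), the thioredoxin reductases TXNRD1 and TXNRD2, and sulfiredoxin (SRXN1) were followed across 4 groups of HEK293T cells. The 10 genes were chosen by symbol from the 58735 genes listed in the count table, and all 10 were among the 18368 that passed the filter on low counts. HEK293T is a human embryonic kidney line that carries the SV40 large T antigen. Poly(A) RNA of 11 cultures was sequenced with strand-specific libraries. The groups were control (n = 3), siNAE1 at 50 nM (n = 3), siUBE2M at 70 nM (n = 3) and siURM1 at 60 nM (n = 2), and the knockdown cells were harvested 48 h after transfection with RNAiMAX. NAE1 is a subunit of the activating enzyme for NEDD8, UBE2M is a conjugating enzyme for NEDD8, and URM1 is a ubiquitin-like protein that also carries sulfur for tRNA modification. The labels call the control cells control siRNA, and the study's methods include a non-targeting siRNA as negative control, at a concentration not given in the sources used here. The study also names the control libraries HKWT, and whether these cells were transfected is not certain. The siRNA concentration differed between the knockdowns, and target and concentration cannot be told apart.

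Peroxiredoxins are abundant thiol peroxidases that reduce hydrogen peroxide and organic peroxides with a reactive cysteine. Most of them are returned to the reduced state by thioredoxin, which is in turn reduced by a thioredoxin reductase at the expense of NADPH. Sulfiredoxin rescues peroxiredoxins whose cysteine has been oxidized too far, and several genes of the system are known targets of the transcription factor NRF2, encoded by NFE2L2, which binds antioxidant response elements.

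The stretches before the transcription starts are shown for the reductase that carried a match to the NRF2 element, for thioredoxin, and for PRDX2, the gene whose level moved in opposite directions in different knockdowns. RefSeq promoters of GRCh38.p14 were matched for 8 of the 10 genes, with 12 promoters, and those of PRDX1 and PRDX6 were missing. The 250 bases before each start were searched on both strands for the antioxidant response element core TGACNNNGC, the heat shock element pair GAANNTTC, the TATA box TATAAA and the GC box GGGCGG. Capitals mark matches to the antioxidant response element core and the TATA box, and PRDX2 had neither.
TXNRD1 upstream start site, chr12:104215529-104215778, + strand: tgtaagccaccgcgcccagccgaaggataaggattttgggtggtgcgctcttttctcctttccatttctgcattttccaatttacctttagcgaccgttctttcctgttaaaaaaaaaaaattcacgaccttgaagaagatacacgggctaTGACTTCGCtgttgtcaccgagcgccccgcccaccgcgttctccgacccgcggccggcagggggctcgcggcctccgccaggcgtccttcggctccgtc
TXNRD1 downstream start site, chr12:104286782-104287031, + strand: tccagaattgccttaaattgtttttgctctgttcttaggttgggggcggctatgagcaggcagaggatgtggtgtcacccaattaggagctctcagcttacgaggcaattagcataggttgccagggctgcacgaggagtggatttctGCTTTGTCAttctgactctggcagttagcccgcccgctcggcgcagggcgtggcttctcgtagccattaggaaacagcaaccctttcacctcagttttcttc
TXN, chr9:110256508-110256757, - strand: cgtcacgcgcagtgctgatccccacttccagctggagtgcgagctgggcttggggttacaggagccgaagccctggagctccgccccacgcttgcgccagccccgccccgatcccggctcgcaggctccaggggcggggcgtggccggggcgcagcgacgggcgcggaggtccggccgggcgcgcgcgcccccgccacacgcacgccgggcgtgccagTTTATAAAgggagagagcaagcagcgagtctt
PRDX2, chr19:12801801-12802050, - strand: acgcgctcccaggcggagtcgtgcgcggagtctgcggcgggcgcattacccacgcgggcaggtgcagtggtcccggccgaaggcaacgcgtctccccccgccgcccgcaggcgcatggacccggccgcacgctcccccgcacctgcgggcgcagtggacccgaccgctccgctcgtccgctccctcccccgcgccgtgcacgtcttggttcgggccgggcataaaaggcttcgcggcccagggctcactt

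The core of the antioxidant response element was found in 10.9% of the 35116 promoters searched over all genes, and among the 12 promoters of this system it was found in both of TXNRD1 alone. At the upstream start, which is the start listed for TXNRD1 in the count table, TGACTTCGC lay 99 to 91 bases before the start. At the downstream start the match was on the opposite strand, 102 to 94 bases before the start. TXN held TATAAA 30 to 25 bases before its start, overlapped by a match on the other strand. The 1 other TATA box match was in a TXNRD2 promoter, 120 to 115 bases before the start on the opposite strand, and 10.7% of all promoters held a match. The heat shock element pair was found in none of the 12 promoters and in 5.78% of all promoters, and the GC box was found in 9 of the 12 and in 42.6% of all promoters. The GC content of the 12 promoters ranged from 52.4% to 80.4%, against a median of 58% over all promoters. These matches describe letters in a window, and binding was not measured.

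Total counts ranged from 11733163 to 16321391 per library. The targeted genes were at 39.0% (NAE1), 6.34% (UBE2M) and 28.6% (URM1) of the control level in their own knockdowns. All 7 markers of the HEK293 line had counts in all 11 libraries. They were lowest for LHX1 (32 to 97) and PAX2 (59 to 316) and highest for VIM (2721 to 5383). The 4 hepatocyte markers had at most 9 counts, with APOB at 0. Of the leukocyte markers PTPRC had at most 3 counts and CD74 had 2 to 16, and of the fibroblast markers DCN had at most 2, COL3A1 22 to 107 and COL1A1 218 to 448. Levels of different genes were compared as FPKM, that is, counts scaled for library depth and for listed gene length. Changes are log2 fold changes with standard errors (SE) from edgeR's quasi-likelihood test on counts over all 11 libraries, and a change was called at a Benjamini-Hochberg adjusted p under 0.05 over the 18368 genes tested. The 3 comparisons with control share the same 3 control libraries. In these bulk samples a change in RNA per cell cannot be told apart from a change in the kinds of cells present.

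PRDX1 rose by the largest amount of the 10 genes in each of the 3 knockdowns, and the fitted log2 changes of the other 9 genes were all under 1 in size. Against control, 7 of the 10 genes were called in siNAE1 cells, where 54.7% of all genes tested were called, with 6 higher (27.6% of all genes) and 1 lower (27.1% of all genes). In siUBE2M cells 3 genes were called and all 3 were higher, where 45.3% of all genes were called, 22.7% higher and 22.6% lower. In siURM1 cells 5 genes were called and all 5 were higher, where 41.6% of all genes were called, 20.8% higher and 20.8% lower. With the added threshold of a log2 change of at least 1 in size, PRDX1 was the 1 gene of the 10 in each knockdown, against 13.9%, 7.11% and 7.62% of all genes in siNAE1, siUBE2M and siURM1 cells. The median log2 change of the 10 genes was 0.31 in siNAE1, 0.05 in siUBE2M and 0.25 in siURM1 cells, beside 0.00, 0.01 and -0.02 over all genes.

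**Figure D1:**
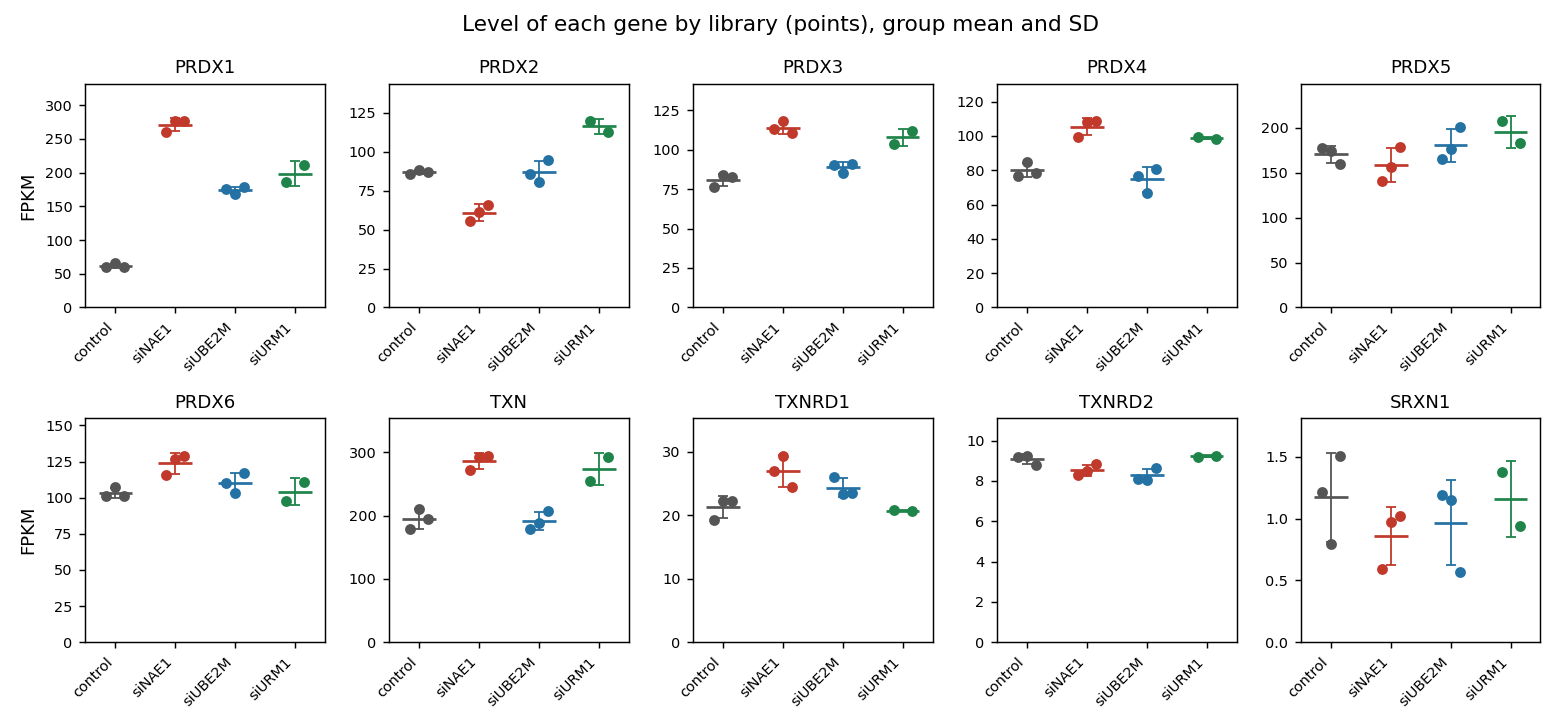
FPKM (y axis, linear, from 0) of each of the 10 genes in every library, with groups on the x axis, points for libraries, and bars for the group mean and SD (n = 3, 3, 3 and 2). PRDX1 in the knockdown libraries sits between 168 and 277 FPKM, above the control libraries at 59.7 to 65.3, while PRDX2 is lowest in siNAE1 and highest in siURM1 cells.

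PRDX1 (ENSG00000117450, GRCh38 chromosome 1, 45511036 to 45523047, minus strand) encodes an abundant cytosolic and nuclear peroxiredoxin. Its level was 59.7, 65.3 and 59.9 FPKM in the control libraries, and 260.5, 276 and 277 FPKM in the siNAE1 libraries. It was 175, 168 and 178 FPKM in siUBE2M cells and 185 and 211 FPKM in siURM1 cells. No knockdown library of PRDX1 overlapped the controls, and the 3 knockdowns did not overlap each other, with siNAE1 highest and siUBE2M lowest. The rise was 4.42-fold in siNAE1 cells (log2 change 2.15, SE 0.06, edgeR adjusted p = 6.9e-23). It was 2.83-fold in siUBE2M cells (log2 change 1.5, SE 0.06, edgeR adjusted p = 1.4e-18) and 3.22-fold in siURM1 cells (log2 change 1.69, SE 0.07, edgeR adjusted p = 5.9e-19). Of the 18368 genes tested, 117, 236 and 182 had a higher log2 change than PRDX1 in the knockdowns of NAE1, UBE2M and URM1. Among genes with the same or a higher mean level over all 11 libraries, the numbers were 1, 2 and 1. That mean includes the knockdown libraries, so the rise of PRDX1 itself narrowed the set of genes compared. MMACHC, which runs on the opposite strand and shares 2347 bases of the listed PRDX1 locus, had log2 changes of -0.41 (edgeR adjusted p = 0.0025), -0.26 (0.055) and 0.15 (0.32) in the same order.

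PRDX2 (ENSG00000167815, chromosome 19, 12796820 to 12801859, minus strand), a cytosolic peroxiredoxin abundant in red blood cells and neurons, moved in opposite directions in siNAE1 and siURM1 cells. Control libraries held 86.0, 88.3 and 87.0 FPKM, siNAE1 libraries 55.3, 61.5 and 65.8, siUBE2M libraries 86.0, 80.8 and 94.8, and siURM1 libraries 119.7 and 113. The siNAE1 libraries all lay below and the siURM1 libraries above every control library, whereas the siUBE2M range enclosed the control range. PRDX2 fell in siNAE1 cells (log2 change -0.51, SE 0.07, edgeR adjusted p = 1.1e-07) and rose in siURM1 cells (log2 change 0.42, SE 0.07, edgeR adjusted p = 2.2e-05). In siUBE2M cells the log2 change was 0.01 (95% interval -0.13 to 0.14, edgeR adjusted p = 0.95). The direct contrast of siNAE1 with siURM1 gave a log2 difference of -0.93 (SE 0.07, edgeR adjusted p = 1.2e-11), and siUBE2M lay below siURM1 by a log2 difference of -0.41 (edgeR adjusted p = 4e-05). PRDX2 lies inside the listed span of HOOK2 on the same strand, and HOOK2 was not called in any knockdown, with log2 changes of -0.20, -0.07 and -0.06.

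PRDX3, PRDX4 and PRDX5 encode peroxiredoxins of cell compartments. PRDX3 (ENSG00000165672, chromosome 10, 119167703 to 119178833, minus strand) works in mitochondria. Its FPKM were 76.1, 83.6 and 82.5 in control, 113, 118 and 111 in siNAE1, 90.1, 85.4 and 91.0 in siUBE2M, and 104 and 112 in siURM1 libraries. Every knockdown library was above every control library, by a narrow margin in siUBE2M cells. PRDX3 rose in siNAE1 (log2 change 0.50, SE 0.06, edgeR adjusted p = 7.9e-09) and siURM1 cells (log2 change 0.41, SE 0.06, edgeR adjusted p = 3.5e-06). Its rise in siUBE2M cells was small (log2 change 0.14, SE 0.06, edgeR adjusted p = 0.045), and the call was lost in 11 of 15 alternatives. Among these were the fits without control replicate 1 (log2 change 0.11, edgeR adjusted p = 0.19) and without control replicate 3 (0.17, edgeR adjusted p = 0.055). The call was also lost without siUBE2M replicate 1 (0.14, edgeR adjusted p = 0.11) and without siUBE2M replicate 3 (0.13, edgeR adjusted p = 0.099). It was also lost without siNAE1 replicate 3, a library of neither group that was part of the same fit.

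PRDX4 (ENSG00000123131, chromosome X, 23664262 to 23686399, plus strand), which works in the endoplasmic reticulum and takes part in oxidative protein folding, had 76.8, 84.8 and 78.4 FPKM in control and 99.5, 108 and 109 in siNAE1 libraries. The siUBE2M libraries held 76.5, 66.8 and 80.9 FPKM and the siURM1 libraries 99.1 and 98.1. The siNAE1 and siURM1 libraries lay above all controls, and the siUBE2M libraries overlapped them. PRDX4 rose in siNAE1 (log2 change 0.41, SE 0.07, edgeR adjusted p = 4.5e-06) and siURM1 cells (log2 change 0.30, SE 0.07, edgeR adjusted p = 0.0012). In siUBE2M cells the log2 change was -0.09 (95% interval -0.23 to 0.04, edgeR adjusted p = 0.26).

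PRDX5 (ENSG00000126432, chromosome 11, 64318088 to 64321811, plus strand) serves mitochondria, peroxisomes and the cytosol. It had 177, 175 and 159.9 FPKM in control, 140.5, 156 and 178 in siNAE1, 165, 176 and 201 in siUBE2M, and 208 and 183 in siURM1 libraries. Both siURM1 libraries exceeded all controls, and the other knockdowns overlapped the controls. None of the knockdowns passed the test, with log2 changes of -0.10 in siNAE1 (95% interval -0.26 to 0.06, edgeR adjusted p = 0.28), 0.09 in siUBE2M (-0.07 to 0.24, adjusted p = 0.38) and 0.20 in siURM1 cells (0.02 to 0.37, adjusted p = 0.067). The siNAE1 value passed without siNAE1 replicate 3 (log2 change -0.19, edgeR adjusted p = 0.044) and shrank without siNAE1 replicate 1 (-0.02, edgeR adjusted p = 0.85). The siURM1 value passed without siURM1 replicate 2 (log2 change 0.29, edgeR adjusted p = 0.035) and shrank without siURM1 replicate 1 (0.10, edgeR adjusted p = 0.51). It also passed without replicate 1 or 3 of siNAE1 or of siUBE2M, and with a replicate block. It passed too with no filter on low counts (log2 change 0.20, edgeR adjusted p = 0.034) and with only the 2 groups in the fit (0.20, edgeR adjusted p = 0.020).

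PRDX6 (ENSG00000117592, chromosome 1, 173477266 to 173488807, plus strand) differs from the rest in that it is reduced with glutathione and also has phospholipase activity. Its FPKM were 101, 107 and 101 in control, 115, 126 and 129 in siNAE1, 110.1, 103 and 117 in siUBE2M, and 97.4 and 111 in siURM1 libraries. The siNAE1 libraries lay above all controls and the other groups overlapped them. PRDX6 rose in siNAE1 cells (log2 change 0.27, SE 0.06, edgeR adjusted p = 6.2e-04). The log2 change was 0.10 in siUBE2M (95% interval -0.03 to 0.23, edgeR adjusted p = 0.22) and 0.01 in siURM1 cells (-0.14 to 0.15, adjusted p = 0.93).

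SRXN1 (ENSG00000271303, chromosome 20, 646615 to 653370, minus strand), the reductase of overoxidized peroxiredoxins, was the least abundant of the 10 transcripts and the least precisely measured. It had 1.21, 0.795 and 1.51 FPKM in control, 0.59, 0.971 and 1.02 in siNAE1, 1.19, 1.15 and 0.568 in siUBE2M, and 1.38 and 0.943 in siURM1 libraries. These levels rest on 55, 35 and 65 counts in control, 21, 38 and 31 in siNAE1, 44, 48 and 22 in siUBE2M, and 60 and 37 in siURM1 libraries. All 4 groups overlapped. No change was detectable at this depth, with log2 changes of -0.44 in siNAE1 (95% interval -1.06 to 0.17, edgeR adjusted p = 0.22), -0.27 in siUBE2M (-0.86 to 0.33, adjusted p = 0.48) and -0.01 in siURM1 cells (-0.66 to 0.64, adjusted p = 0.98). Another listed gene, AL121758.1, spans 6745 bases of SRXN1 on the same strand and had 0 to 6 counts per library, and fragments that fall in both genes may have been left unassigned.

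TXN (ENSG00000136810, chromosome 9, 110243811 to 110256640, minus strand) is the cytosolic thioredoxin that reduces peroxiredoxins, ribonucleotide reductase and methionine sulfoxide reductases. It was the most abundant of the 10 transcripts by group mean FPKM in every group. Control libraries held 179, 211 and 194 FPKM, siNAE1 libraries 272, 292 and 294, siUBE2M libraries 179, 189 and 207, and siURM1 libraries 255 and 292. The siNAE1 and siURM1 libraries lay above all controls, and the siUBE2M libraries lay within the control range. TXN rose 1.48-fold in siNAE1 cells (log2 change 0.56, SE 0.07, edgeR adjusted p = 1.4e-08) and 1.40-fold in siURM1 cells (log2 change 0.49, SE 0.07, edgeR adjusted p = 2.2e-06). In siUBE2M cells its log2 change was -0.02 (95% interval -0.15 to 0.12, edgeR adjusted p = 0.85).

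TXNRD1 (ENSG00000198431, chromosome 12, 104215779 to 104350305, plus strand) encodes the cytosolic thioredoxin reductase, a selenoprotein, and is the gene whose promoters held the antioxidant response element core. Its FPKM were 19.3, 22.3 and 22.3 in control, 27.0, 29.4 and 24.4 in siNAE1, 26.1, 23.4 and 23.5 in siUBE2M, and 20.8 and 20.6 in siURM1 libraries. The siNAE1 and siUBE2M libraries lay above all controls, and the siURM1 libraries lay within the control range. TXNRD1 rose in siNAE1 (log2 change 0.35, SE 0.07, edgeR adjusted p = 9.1e-05) and in siUBE2M cells (log2 change 0.20, SE 0.07, edgeR adjusted p = 0.022). The siUBE2M call was lost in 5 of 15 alternatives, the 3 limma fits on FPKM among them. The others were the fits without control replicate 1 (log2 change 0.14, edgeR adjusted p = 0.15) and without siUBE2M replicate 1 (log2 change 0.15, edgeR adjusted p = 0.12). In siURM1 cells the log2 change was -0.04 (95% interval -0.20 to 0.12, edgeR adjusted p = 0.72). RPL18AP3, a pseudogene inside the TXNRD1 locus on the same strand with 1622 to 2970 counts per library, was called higher in every knockdown (log2 change 0.37 in siNAE1, 0.25 in siUBE2M and 0.56 in siURM1).

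TXNRD2 (ENSG00000184470, chromosome 22, 19875517 to 19941992, minus strand), the mitochondrial reductase, was lower and flatter. It had 9.17, 9.25 and 8.80 FPKM in control, 8.30, 8.48 and 8.84 in siNAE1, 8.11, 8.07 and 8.67 in siUBE2M, and 9.20 and 9.25 in siURM1 libraries. The siUBE2M libraries lay below all controls and the other groups overlapped them. No change was called, with log2 changes of -0.08 (95% interval -0.22 to 0.06, edgeR adjusted p = 0.33), -0.13 (-0.27 to 0.01, adjusted p = 0.13) and 0.02 (-0.13 to 0.18, adjusted p = 0.83) in the knockdowns of NAE1, UBE2M and URM1.

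**Figure D2:**
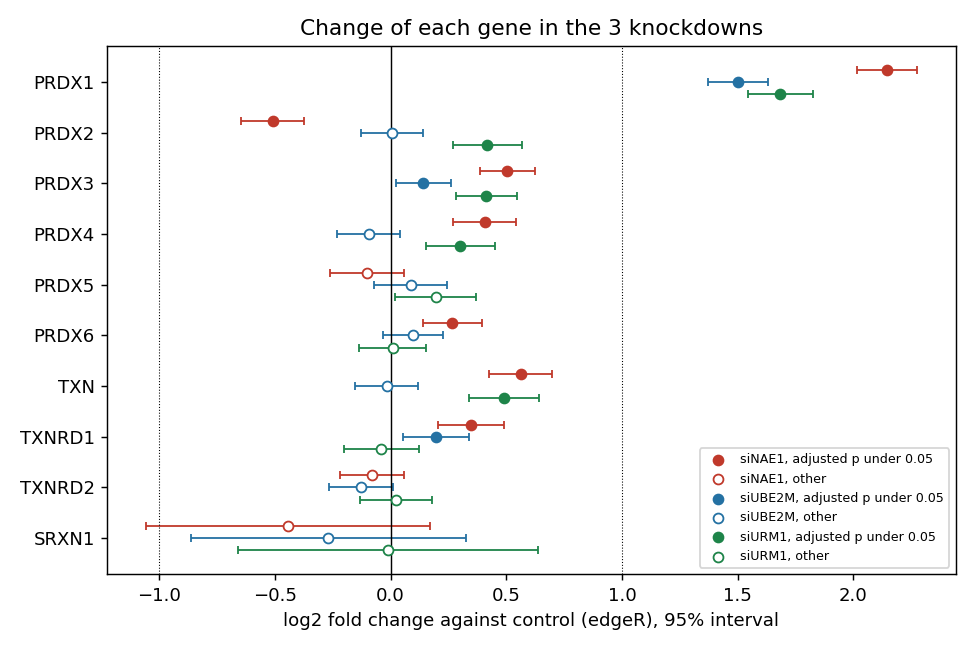
Log2 fold change against control (x axis, edgeR) of the 10 genes (y axis) in the 3 knockdowns, with 95% intervals as bars, filled points for an adjusted p under 0.05 and dotted lines at a log2 change of 1 in either direction. PRDX1 is the 1 gene past the dotted line, at 2.15, 1.5 and 1.69, and PRDX2 lies at -0.51 in siNAE1 and 0.42 in siURM1 cells.

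The knockdowns were also compared with each other in the same edgeR fit. Between siNAE1 and siUBE2M cells 7 of the 10 genes were called, against 44.3% of all genes. PRDX1 (log2 difference 0.64, SE 0.06), TXN (0.58, SE 0.07), PRDX4 (0.50, SE 0.07), PRDX3 (0.36, SE 0.06) and PRDX6 (0.17, SE 0.06) were higher in siNAE1 cells, and PRDX2 (-0.52, SE 0.07) and PRDX5 (-0.19, SE 0.08) were lower. The PRDX5 and PRDX6 differences were near the threshold (edgeR adjusted p = 0.049 and 0.029), and their libraries overlapped. PRDX5 was no longer called without siNAE1 replicate 1, siNAE1 replicate 2, siUBE2M replicate 2 or siUBE2M replicate 3. PRDX6 was no longer called without siNAE1 replicate 2, siNAE1 replicate 3, siUBE2M replicate 1 or siUBE2M replicate 2. All 3 limma fits on FPKM lost both, DESeq2 lost PRDX5, and the fit of 2 groups lost PRDX6.

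Between siNAE1 and siURM1 cells 5 of the 10 genes were called, against 38.6% of all genes. Higher in siNAE1 cells were PRDX1 (log2 difference 0.46, SE 0.07), TXNRD1 (0.39, SE 0.08) and PRDX6 (0.26, SE 0.07), and lower were PRDX2 (-0.93, SE 0.07) and PRDX5 (-0.30, SE 0.09). Without siURM1 replicate 1 the count fell to 3, since PRDX5 and PRDX6 were no longer called, and PRDX5 was also lost without siNAE1 replicate 1. The 3 limma fits on FPKM lost PRDX5, and that without a filter lost PRDX6 too. For PRDX3, PRDX4 and TXN, which were raised in both knockdowns, the log2 differences were 0.09 (95% interval -0.04 to 0.22), 0.10 (-0.05 to 0.26) and 0.07 (-0.08 to 0.22).

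Between siUBE2M and siURM1 cells 6 of the 10 genes were called, against 35.0% of all genes. TXN (log2 difference -0.51, SE 0.07), PRDX2 (-0.41, SE 0.07), PRDX4 (-0.40, SE 0.07), PRDX3 (-0.27, SE 0.06) and PRDX1 (-0.18, SE 0.07) were lower in siUBE2M cells, and TXNRD1 (0.24, SE 0.08) was higher. The PRDX1 difference (edgeR adjusted p = 0.033) was lost without siUBE2M replicate 1, siUBE2M replicate 2 or siURM1 replicate 2. The TXNRD1 difference (edgeR adjusted p = 0.019) was lost without siUBE2M replicate 1 or without either siURM1 library. All 3 limma fits on FPKM lost both differences, and the fit of 2 groups lost that of PRDX1. TXN, PRDX3 and PRDX4 were therefore higher than in siUBE2M cells in both siNAE1 and siURM1 cells, with separate libraries each time.

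In control cells the mean levels ran from TXN (195 FPKM) and PRDX5 (171) through PRDX6 (103), PRDX2 (87.1), PRDX3 (80.8), PRDX4 (80.0) and PRDX1 (61.6) to TXNRD1 (21.3), TXNRD2 (9.07) and SRXN1 (1.17). PRDX3 and PRDX4 overlapped across control libraries and were not told apart, while every other pair of neighbours had separate ranges. PRDX1 was the 7th of the 10 genes in control cells and the 2nd in siNAE1 cells at 271 FPKM, where its range overlapped that of TXN at 286 FPKM. In siUBE2M cells it was the 3rd at 174 FPKM and overlapped PRDX5, and in siURM1 cells it was the 2nd at 198 FPKM and again overlapped PRDX5. PRDX2 went from the 4th place in control cells to the 7th in siNAE1 cells at 60.8 FPKM and held the 4th in siURM1 cells at 116 FPKM. TXNRD1, TXNRD2 and SRXN1 kept the 8th, 9th and 10th places in all 4 groups. These places rest on FPKM, and raw counts, which are not divided by length, give another order.

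The make-up of the peroxiredoxin transcripts is given as shares and ratios of FPKM, without a test. PRDX1 was 10.6% ± 0.24 of the summed FPKM of PRDX1 to PRDX6 in control cells (SD, n = 3). It was 32.6% ± 0.70 in siNAE1 (SD, n = 3), 24.3% ± 0.83 in siUBE2M (SD, n = 3) and 24.2% ± 1.93 in siURM1 cells (SD, n = 2). No knockdown library fell below 22.8% and no control library exceeded 10.8%. The summed FPKM of the 6 peroxiredoxins were 583 ± 18.5 in control, 833 ± 44.0 in siNAE1, 715 ± 42.9 in siUBE2M and 820.4 ± 10.2 in siURM1 cells. Without PRDX1 the sums were 522 ± 15.5, 562 ± 35.1, 541 ± 38.2 and 622 ± 8.07 in the same order. The share of PRDX2 was 14.9% ± 0.34 in control, 7.29% ± 0.26 in siNAE1, 12.2% ± 0.28 in siUBE2M and 14.2% ± 0.76 in siURM1 cells. The ratio of PRDX1 to PRDX2 FPKM was 0.707 ± 0.028 in control, 4.47 ± 0.25 in siNAE1, 2.00 ± 0.10 in siUBE2M and 1.71 ± 0.23 in siURM1 cells. PRDX5 had the largest FPKM share of the 6 in control cells, at 29.3% ± 1.32. It made up 19.0% ± 1.38 in siNAE1, 25.2% ± 1.51 in siUBE2M and 23.8% ± 2.42 in siURM1 cells. In mean control counts, which are not divided by length, PRDX3 (4513), PRDX6 (3998) and PRDX2 (2982) exceeded PRDX5 (2496).

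**Figure D3:**
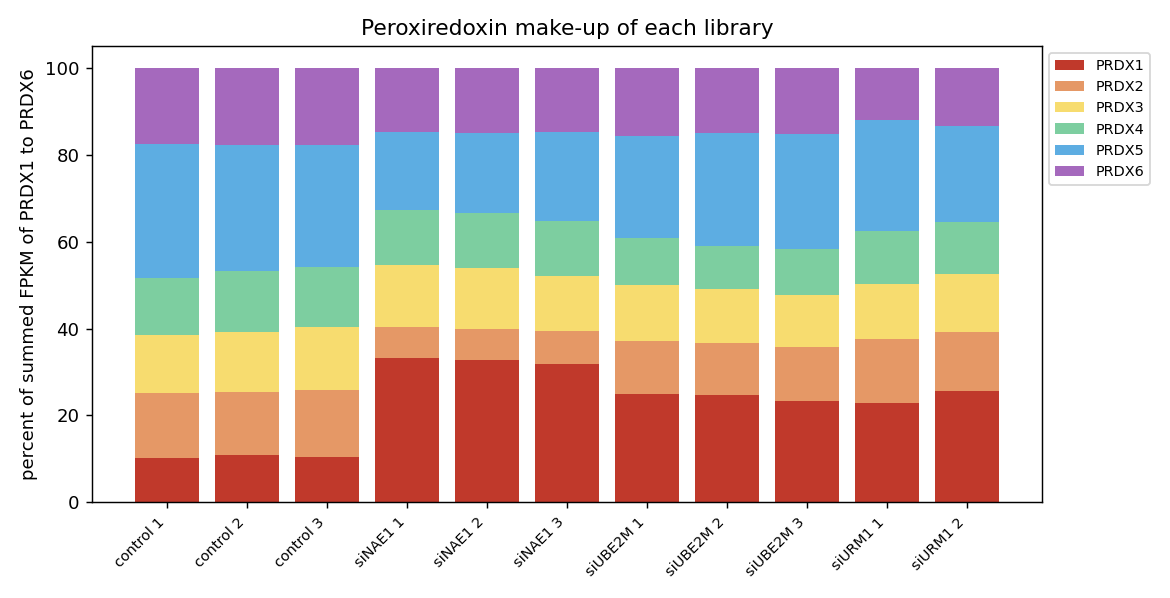
Percent of the summed FPKM of PRDX1 to PRDX6 (y axis) that each peroxiredoxin held in each of the 11 libraries (x axis, group and replicate number). The PRDX1 segment covers 10.3% to 10.8% in control and 22.8% to 33.2% in knockdown libraries.

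In FPKM thioredoxin stood well above its reductase throughout. Mean control counts, not divided by the listed lengths of 1142 and 6708 bases, were 3636 for TXN and 2333 for TXNRD1. The ratio of TXN to TXNRD1 FPKM was 9.16 ± 0.39 in control, 10.7 ± 1.2 in siNAE1, 7.92 ± 0.96 in siUBE2M and 13.2 ± 1.32 in siURM1 cells, where both libraries (12.3 and 14.1) exceeded every other library. The ratio of TXNRD1 to TXNRD2 was 2.35 ± 0.22 in control, 3.16 ± 0.36 in siNAE1, 2.94 ± 0.25 in siUBE2M and 2.24 ± 0.02 in siURM1 cells.

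The wider redox network was described with 57 other genes in 10 lists, of which 56 were tested and GPX7 was not. In siNAE1 cells 49 of the 56 were called, 32 higher and 17 lower, beside 54.7% of all genes. In siUBE2M cells 37 were called, 21 higher and 16 lower, beside 45.3% of all genes, and in siURM1 cells 42 were called, 25 higher and 17 lower, beside 41.6%. Their median log2 changes were 0.25, 0.04 and 0.08, and 7, 5 and 4 of the 56 also had a log2 change of at least 1 in size, beside 13.9%, 7.11% and 7.62% of all genes.

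Among 8 relatives and partners of thioredoxin, 3 rose and 4 fell in siNAE1 cells, beside 27.6% and 27.1% of all genes. In siUBE2M cells 1 rose and 4 fell (22.7% and 22.6% of all genes), and in siURM1 cells 3 rose and 4 fell (20.8% each). TXNIP, the inhibitor that binds reduced thioredoxin, fell in every knockdown (log2 change -0.84 in siNAE1, -0.86 in siUBE2M and -0.41 in siURM1 cells). TXNDC9, a thioredoxin-like protein linked to chaperonin folding, also fell in every knockdown (-0.91, -1.17 and -1.01). The mitochondrial thioredoxin TXN2 rose in siNAE1 (0.25) and siURM1 cells (0.30) and had a log2 change of 0.06 in siUBE2M cells (edgeR adjusted p = 0.49).

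A list of 7 genes held subunits of ribonucleotide reductase and the methionine sulfoxide reductases, enzymes that thioredoxin reduces. In siNAE1 cells 3 rose and 2 fell, beside 27.6% and 27.1% of all genes. In siUBE2M cells 4 rose and 2 fell (22.7% and 22.6%), and in siURM1 cells 2 rose and 3 fell (20.8% each). Methionine sulfoxide reductases, which repair oxidized methionine, changed in different directions. MSRB1 rose in siNAE1 (log2 change 1.24, SE 0.09) and siUBE2M cells (0.54, SE 0.09), and its value in siURM1 cells was 0.15 (edgeR adjusted p = 0.26). The mitochondrial MSRB2 fell in all 3 knockdowns (-1.70, -0.59 and -0.66). MSRA fell in siUBE2M (-1.73, SE 0.25) and siURM1 cells (-0.66, SE 0.25), and its value in siNAE1 cells was -0.49 (edgeR adjusted p = 0.063). Its levels were low, at 1.40 FPKM in control, 1.01 in siNAE1, 0.419 in siUBE2M and 0.887 in siURM1 cells.

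The glutaredoxin system had 5 genes, with 3 higher and 1 lower in siNAE1 cells, beside 27.6% and 27.1% of all genes. It had 2 higher and 2 lower in siUBE2M (22.7% and 22.6%), and 3 higher and 1 lower in siURM1 cells (20.8% each). GLRX, the cytosolic glutaredoxin, rose in all 3 (log2 changes 0.68, 0.50 and 1.03). Of 6 other enzymes that remove peroxide or superoxide, 5 rose in siNAE1 cells and 4 each in siUBE2M and siURM1 cells. The shares of all genes called higher were 27.6%, 22.7% and 20.8% in the same order. SOD1, the cytosolic superoxide dismutase, rose by log2 changes of 0.85, 0.54 and 0.54. GPX8, a peroxidase of the endoplasmic reticulum, was the 1 gene of that list that fell, in siNAE1 cells (-0.45, SE 0.08), and it was named after its values were seen.

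Of 6 suppliers of NADPH, 5 rose in siNAE1, 2 in siUBE2M and 4 in siURM1 cells, beside 27.6%, 22.7% and 20.8% of all genes. The mitochondrial isocitrate dehydrogenase IDH2, named after its values were seen, was the 1 gene of the list that fell in each knockdown (log2 changes -0.36, -0.37 and -0.37). Of 5 genes of thiol oxidation in the endoplasmic reticulum, where PRDX4 works, 5 rose in siNAE1, 2 in siUBE2M and 4 in siURM1 cells. None of them fell. Over all genes, 27.6%, 22.7% and 20.8% were called higher and 27.1%, 22.6% and 20.8% lower in the same order. Of 3 sestrins, 1 rose and 1 fell in siNAE1 cells, beside 27.6% and 27.1% of all genes. In siUBE2M cells 2 fell (22.6%), and in siURM1 cells 1 rose and 2 fell (20.8% each). SESN2 fell in each knockdown (-0.67, -0.69 and -0.80).

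The 5 genes that insert selenocysteine, the residue in the active site of TXNRD1 and TXNRD2, were mostly lower. All 5 fell in siNAE1 cells, 4 fell in siUBE2M cells, and 4 fell and 1 rose in siURM1 cells, where 27.1%, 22.6% and 20.8% of all genes were called lower. SEPSECS, which completes selenocysteine on its tRNA, fell in each knockdown (log2 changes -1.94, SE 0.14, then -1.27, SE 0.13, and -1.27, SE 0.15). PSTK, the kinase that acts before it, had log2 changes of -0.999, -1.01 and -0.50 and fell in each knockdown. SEPHS2, the selenophosphate synthetase, was the gene that rose in siURM1 cells (0.46, SE 0.06), and it was named after its values were seen. TXNRD1 and TXNRD2, whose proteins depend on this machinery, were not called lower in any knockdown. TXNRD3, another thioredoxin reductase that was named after its values were seen, fell in each (log2 changes -0.86, -0.62 and -0.33).

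Of 7 genes that control NRF2 or share its binding sites, 3 rose and 2 fell in siNAE1 cells, beside 27.6% and 27.1% of all genes. In siUBE2M cells 2 rose and 1 fell (22.7% and 22.6%), and in siURM1 cells 1 rose and 2 fell (20.8% each). NFE2L2 fell in siNAE1 cells (log2 change -0.30, SE 0.08, edgeR adjusted p = 0.0013), with values of -0.10 in both siUBE2M (edgeR adjusted p = 0.29) and siURM1 cells (0.37). KEAP1, which directs NRF2 to degradation, was not called (-0.08, -0.07 and 0.01). The small MAF protein genes MAFF and MAFK rose in siNAE1 cells (1.01 and 1.02), with MAFF at 1.04 and MAFK at 0.30 in siUBE2M cells. In siURM1 cells MAFF rose as well (0.998), and MAFK had a value of -0.16 (edgeR adjusted p = 0.32). MAFG, named after its values were seen, fell in siURM1 cells (-0.32, SE 0.08). MAFF levels were low, with 0.616 FPKM in control and 1.24, 1.27 and 1.24 in siNAE1, siUBE2M and siURM1 cells.

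All 4 NRF2 target enzymes rose in siNAE1 and in siUBE2M cells, and 2 of the 4 rose in siURM1 cells, beside 27.6%, 22.7% and 20.8% of all genes. NQO1, a quinone reductase, had 0.989 FPKM in control, 2.36 in siNAE1, 1.67 in siUBE2M and 1.10 in siURM1 cells. It rose in siNAE1 (log2 change 1.26, SE 0.22) and siUBE2M cells (0.76, SE 0.22), with 0.16 in siURM1 cells (edgeR adjusted p = 0.66). HMOX1, the heme oxygenase, rose from 5.12 FPKM to 21.9 in siNAE1 (2.10, SE 0.11), 7.12 in siUBE2M (0.48, SE 0.12) and 18.5 in siURM1 cells (1.85, SE 0.12). Of the members, SRXN1 was called in none of the 3 knockdowns, TXNRD1 in siNAE1 and siUBE2M, and PRDX1 in all 3.

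**Figure D4:**
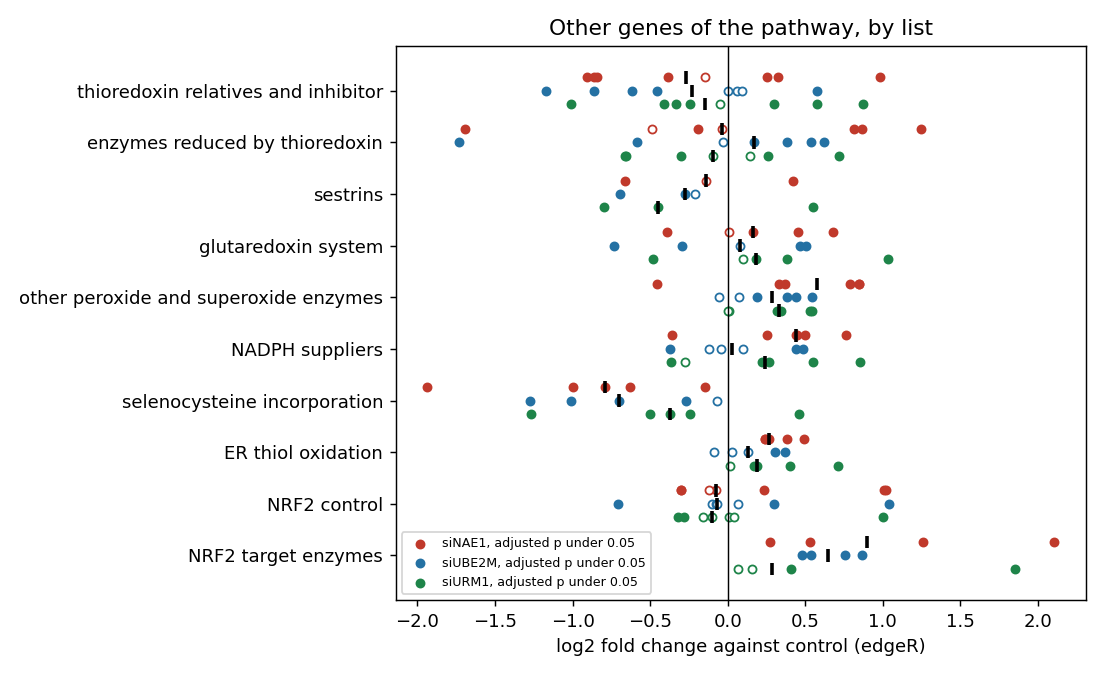
Log2 fold change against control (x axis, edgeR) of the 56 tested genes of 10 lists (y axis) in the 3 knockdowns, with filled points for an adjusted p under 0.05, open points for the rest and black ticks for each list's median. Selenocysteine genes lie mostly to the left (medians -0.79, -0.70 and -0.37) and NRF2 target enzymes to the right (0.90, 0.65 and 0.28).

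The genes whose pattern over the 11 libraries was most like that of PRDX1 were found by the root-mean-square difference of log2 CPM (counts scaled to the TMM-adjusted library total), centred on the control mean. The 10467 genes compared had mean levels of 10 CPM or more over the 11 libraries. Among the closest were TNFRSF10D (0.27), CXCR4 (0.29), CTSA (0.31) and TMSB10 (0.34). In the knockdowns of NAE1, UBE2M and URM1, TNFRSF10D had log2 changes of 2.43, 1.26 and 1.34 and CXCR4 had 1.98, 1.12 and 2.00. With control means of 6.33 CPM (TNFRSF10D) and 4.85 CPM (CXCR4), these 2 genes passed that minimum only through the knockdown libraries, while CTSA (29.1 CPM) and TMSB10 (78.8 CPM) were above it in control cells. CTSA had 1.57, 1.49 and 1.66, and TMSB10 had 1.62, 1.23 and 1.42.

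Pseudogenes of the members had few counts. Of 17 pseudogenes named after a member, 10 had a count, and the highest was 35 counts in a library for PRDX3P2. Genes listed on top of a member numbered 9 and touched 5 of the 10 members, and the setting for strand in the counting is not given in the sources used here.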

How the data were processed

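RNA of 11 HEK293T libraries was analysed. The authors used fastp for trimming, HISAT2 2.0.5 for alignment to GRCh38, and counted fragments per gene with featureCounts 1.5.0-p3, and they name DESeq2 1.20.0 for their own tests. The deposited counts are raw whole numbers. The authors derived the deposited FPKM by dividing those counts by the listed length of the gene and by a constant for each library, equal to a DESeq2 size factor multiplied by the geometric mean of the totals, which was 0.961 to 1.07 of each total. The annotation version and strand setting are not given in the sources used here, and no column of values was unused.

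Counts were tested in R 4.3.3 with edgeR 4.0.16 (filterByExpr, TMM, quasi-likelihood, 1 fit of 4 groups over 11 libraries, two-sided, Benjamini-Hochberg adjustment over 18368 genes). The spread of the 2 siURM1 libraries is shared with the other groups. The labels call the replicates biological without saying what separates them, so p-values measure the spread between these samples. Intervals are 95% and come from the same fit. No library pair was identical.

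The 10 members and all gene lists were chosen with earlier results of these data known, among them the rise of PRDX1. Named genes were the members, the targets, pathway genes past a log2 change of 1, TXNIP, TXN2, NFE2L2, KEAP1, NQO1, SESN2 and SOD1, the 5 genes most like PRDX1 (log2 CPM with a prior count of 2), and genes overlapping a member. Some genes that this rule names are not reported here. SOD2 was listed under 2 identifiers, and that with more counts was used. Promoter sequences are from RefSeq, with chromosome 8 left out.

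Alternatives were DESeq2 1.42.0, RLE normalization, no filter on low counts, a minimum of 10 counts in each library, fits of 2 groups, a replicate block, leaving out each library, and limma 3.58.1 on log2(FPKM + 1) or log2(FPKM + 0.1). On counts simulated for 18368 genes in all 11 libraries, siNAE1 was compared with control. There edgeR recovered 88 of 100 genes planted at a log2 change of 0.75 and 100 of 100 at 1.5, with 17 false calls. Far fewer genes were planted than were called in the data, none had low counts, and smaller changes were not planted. Plots were made with Python 3.11.15 and matplotlib 3.10.9.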

Additional observations from a re-analysis of the deposited data

Results flagged for a closer look

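PRDX2 was the 1 member whose called changes went in opposite directions in different knockdowns. It fell in siNAE1 cells and rose in siURM1 cells, and the direct contrast of siNAE1 with siURM1 gave a log2 difference of -0.93 (SE 0.07, edgeR adjusted p = 1.2e-11), with all 3 siNAE1 libraries below both siURM1 libraries. Groups of 2 or 3 libraries were too small to look for a library far from the others.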

How the results depend on the processing

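Of 440 values of single members against control under an alternative, 419 stayed on their side of the threshold, 16 lost the call and 5 gained it. The sign differed in 20 of the 440, all of changes that were not called (lowest edgeR adjusted p 0.48), and 0 called changes reversed. The 3 members called in siUBE2M against control became 1 (PRDX1) with limma on log2(FPKM + 1), on log2(FPKM + 0.1) and without the filter, where the cause was not tested, and 1 to 3 when a library was left out. The 5 called between siNAE1 and siURM1 became 3 with limma without the filter, and 3 to 5 when a library was left out. Leaving out a library gave 7 to 8 members in siNAE1 against control, 5 to 6 in siURM1 against control, 5 to 7 between siNAE1 and siUBE2M, and 4 to 6 between siUBE2M and siURM1. The PRDX1 share of peroxiredoxin transcripts from raw counts, without division by length, was 8.51% in control, 26.4% in siNAE1, 20.2% in siUBE2M and 19.8% in siURM1 cells. The 3 counts for the other pathway genes stayed within 1.5 times, at 45 to 49, 31 to 38 and 31 to 42. Depth limits SRXN1 (21 to 65 counts per library).

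Same-numbered libraries did not deviate together (15 pairs, correlations from -0.066 to 0.079, 0 over 0.1), so the numbers do not pair them. With the replicate block, 7, 3 and 6 members were called in siNAE1, siUBE2M and siURM1 cells against control, the added one being PRDX5 in siURM1 cells (log2 change 0.23, edgeR adjusted p = 0.027), and over all genes 9990, 8290 and 7428 were called. Between knockdowns the replicate block gave 7, 5 and 6.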
